A study of Oryza sativa Japonica Group with 12 samples.

Results

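The 9 genes described here are rice genes listed for heat shock chaperones and for a pair of the factors that switch such genes on. The list holds 1 gene for HSP101 (Os05g0519700), 3 for HSP90 (Os08g0500700, Os04g0107900 and Os09g0482400), 3 for HSP70 (Os03g0276500, Os05g0460000 and Os03g0277300), HSFA2a (Os03g0745000) and HSFA2c (Os10g0419300). They were found by identifier among 35833 genes in the deposited table, and all 9 were present. They were chosen from results of the same libraries: heat shock genes had been seen to be higher in treated roots at 24 h, and more so than at 6 h. The 24 h treatment comparison, the difference between the 2 treatment effects and the treated course over time are therefore given for the members as a description, without a p. The 6 h comparison and the mock course share libraries with those used in choosing, so their calls and p-values are a description as well. The names are the intended content of the identifiers, since the files do not pair identifiers with names and the reference table paired 0 of the 9.

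HSP70 proteins bind unfolded stretches of other proteins and release them by an ATP-driven cycle. HSP90 acts later, on nearly folded clients such as kinases and receptors, and HSP101, a plant ClpB protein, pulls proteins out of aggregates together with HSP70. Class A heat stress factors such as HSFA2 bind heat shock elements in promoters of chaperone genes, and HSFA2 is itself known to be heat induced in plants. In rice roots, as in other plant tissues, some HSP70 and HSP90 genes are active without stress while HSP101 and HSFA2 genes are typically low at growth temperature.

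All 12 libraries came from roots of Nipponbare seedlings (Oryza sativa Japonica Group) kept at 28 °C with 12 h of light a day. At 13 days after transplanting, shoots were sprayed with 300 µM piperonylic acid in 0.1% Tween 20 or with the mock solution, and roots were taken at 6 h and at 24 h, giving 4 groups of 3 libraries. Piperonylic acid blocks cinnamate 4-hydroxylase, which acts early in phenylpropanoid synthesis. The series title speaks of roots inoculated with Meloidogyne graminicola, a root-knot nematode, and the source names count the time from a second treatment; neither an inoculation nor an earlier spray of these plants is described further in the labels. Each sample pooled 4 plants, nothing is stated on separate cultures, and the p-values measure the spread between these samples. The times also differ in the age of the plants and possibly in the hour of harvest, which cannot be told apart from the time since the spray.

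Libraries were made from 3′ ends of polyadenylated RNA, so levels are compared here between samples and not between genes. Reads recovered from the table ranged from 6302056 to 10254382 in 11 libraries, and mock replicate 1 at 24 h held 20301774. Root markers summed to between 4079 and 6634 RPM, a count of reads scaled to a common library total, in every library, and leaf markers to between 65.0 and 225, with 0 of the 12 markers at 0. In whole roots, fewer cells of a type and less RNA per cell cannot be told apart. How reads that match several near-identical HSP70 or HSP90 copies were counted is not given in the sources used here, so the split among copies is uncertain.

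Most of the signal came from a pair of genes. The 9 genes together took 0.125% ± 0.0164 (SD, n = 3) of the reads in mock roots and 0.122% ± 0.00986 (SD, n = 3) in treated roots at 6 h. At 24 h they took 0.260% ± 0.0153 (SD, n = 3) in mock roots and 0.329% ± 0.0186 (SD, n = 3) in treated roots. Of this, Os08g0500700 for HSP90 gave 813 ± 122 (SD, n = 3) RPM in mock roots at 6 h and Os03g0276500 for HSP70 gave 399 ± 38.7 (SD, n = 3). The share was higher in every library at 24 h than in any at 6 h, and higher in every treated than in any mock library at 24 h.

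**Figure D1:**
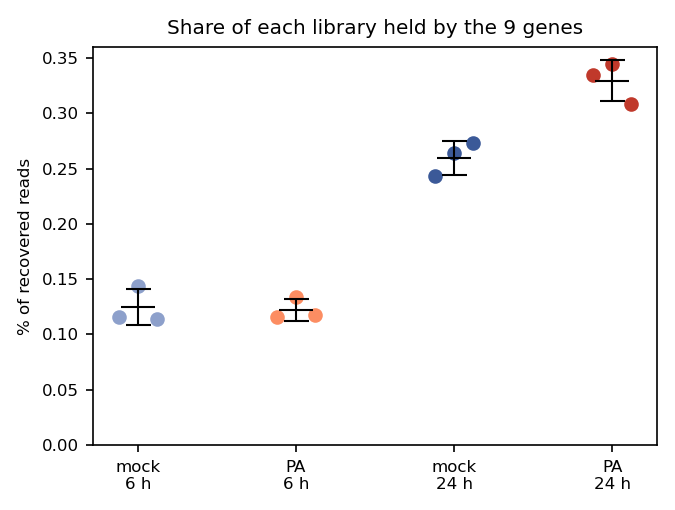
Percent of the recovered reads of each library that fell in the 9 genes (vertical axis), by group (horizontal axis); points are libraries and bars are the mean ± SD of 3. The 6 h groups overlap between 0.114% and 0.144%, the 24 h mock libraries lie between 0.243% and 0.273%, and the 24 h treated libraries between 0.309% and 0.345%.

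Among the HSP90 genes, Os08g0500700 stood at 5745, 7733 and 5855 normalised counts in mock roots and at 6046, 6824 and 6200 in treated roots at 6 h. At 24 h it stood at 17374, 17970 and 19660 in mock roots and at 23634, 24726 and 21194 in treated roots. The 6 h groups overlapped, both 24 h groups lay above them, and the treated group lay above the mock group at 24 h. The HSP70 gene Os03g0276500 stood at 2894, 3596 and 2992 in mock and at 2705, 3266 and 2937 in treated roots at 6 h. Its 24 h values were 5588, 7532 and 5989 in mock and 8852, 8635 and 7180 in treated roots. Its 24 h groups overlapped, because treated replicate 3 lay below mock replicate 2.

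Os05g0460000, also listed for HSP70, stood at 230.1, 280.0 and 222 normalised counts in mock and at 184, 242 and 242 in treated roots at 6 h. The 24 h values were 976, 891 and 1055 in mock and 1314, 1396 and 1571 in treated roots. The 6 h groups overlapped and the 24 h groups did not. The third HSP70 gene, Os03g0277300, was low throughout, at 19.5, 16.6 and 23.5 in mock and 18.7, 11.9 and 11.2 in treated roots at 6 h. At 24 h its values were 26.8, 31.5 and 16.3 in mock and 23.6, 28.9 and 31.0 in treated roots. Its groups overlapped at each time. Os03g0276500 and Os03g0277300 carry neighbouring locus numbers on chromosome 3.

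HSFA2a stood at 6.09, 5.54 and 1.88 normalised counts in mock and at 2.95, 4.98 and 3.74 in treated roots at 6 h, from 2 to 6 reads per library. At 24 h it stood at 48.7, 49.1 and 40.2 in mock and at 58.4, 86.6 and 72.4 in treated roots, from 39 to 100 reads. All 24 h libraries lay above all 6 h libraries, and at 24 h all treated libraries lay above all mock libraries. HSP101 stood at 4.87, 5.54 and 6.58 in mock and at 5.90, 3.98 and 0.934 in treated roots at 6 h. At 24 h it stood at 18.0, 18.9 and 6.70 in mock and at 9.73, 16.2 and 66.2 in treated roots. Its 24 h groups overlapped, and treated replicate 3, with 64 reads against 7 and 14 in the other treated libraries, stood apart. In the same library leaf markers summed to 184 RPM, against 69.5 and 69.7 in replicates 1 and 2 of its group; mock replicate 3 at 24 h had 171 with HSP101 at 7 reads. The part of shoot tissue in the HSP101 value was not tested.

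**Figure D2:**
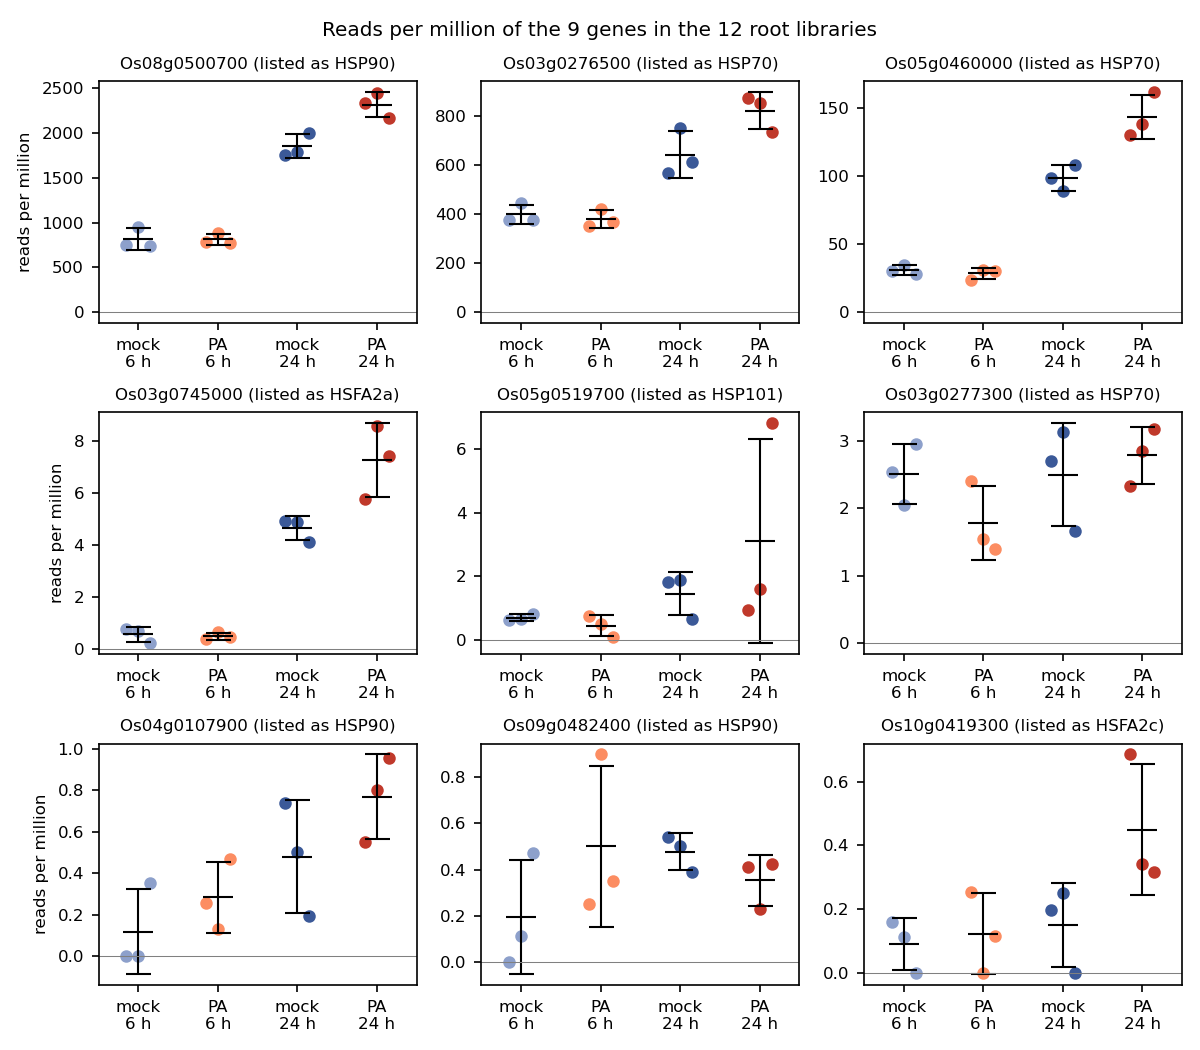
RPM (vertical axes, each from its own scale) of each of the 9 genes in the 4 groups (horizontal axes); points are libraries and bars are the mean ± SD of 3. HSFA2a runs from 0.57 in mock roots at 6 h to 7.25 in treated roots at 24 h, and in HSP101 the treated libraries at 24 h spread widely because replicate 3 lies far above the other 2.

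The other 3 genes had means of 3.89 (Os04g0107900), 3.44 (Os09g0482400) and 1.92 (Os10g0419300, HSFA2c) normalised counts over the 12 libraries and were too low to be tested. Os04g0107900 had 0.940 ± 1.63 normalised counts in mock and 2.23 ± 1.39 in treated roots at 6 h, and 4.75 ± 2.71 and 7.65 ± 1.91 (SD, n = 3) at 24 h. Os09g0482400 had 1.56 ± 1.96 and 3.91 ± 2.68 at 6 h, and 4.74 ± 0.809 and 3.54 ± 1.06 (SD, n = 3) at 24 h. The groups of both genes overlapped at each time. HSFA2c had 2 reads in all in mock and 3 in treated roots at 6 h, and its treated libraries at 24 h, at 6.95, 3.46 and 3.10 normalised counts, lay above the mock libraries, at 1.95, 2.52 and 0. Differences of this size were near the limit of what the depth shows. Of the 6 tested genes, HSFA2a and HSP101 reached the required mean of 10 only through the 24 h libraries, so counts over tested members describe those genes and not all 9.

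At 6 h, 0 of the 6 tested genes were called between treated and mock roots by limma with Benjamini-Hochberg adjustment, where 1.66% of all tested genes, 319 in number, were called in either direction. With a replicate block by the title numbers 802 genes were called and still 0 of the 6. At an unadjusted p under 0.05 the count was also 0, and edgeR and DESeq2 on recovered reads each called 0. The log2 fold change, treated over mock, was -0.01 ± 0.11 (SE) for Os08g0500700, with an adjusted limma p of 0.985. It was -0.09 ± 0.13 (SE) for Os03g0276500 at an adjusted limma p of 0.805 and -0.14 ± 0.12 (SE) for Os05g0460000 at 0.675. Os03g0277300 gave -0.47 ± 0.29 (SE) at an adjusted limma p of 0.489. HSFA2a and HSP101 passed the filter only through the 24 h libraries, so their adjusted limma p is from the fit without it. HSFA2a gave -0.09 ± 0.31 (SE) at 0.997 and HSP101 gave -0.56 ± 0.56 (SE) at 0.766. In that fit 0 of the 9 genes were called, where 0.683% of all genes were. All 6 tested genes were negative, with a median of -0.11 against 0.01 for all tested genes. Without the filter the 3 untested genes were positive, at 0.61 for Os04g0107900, 0.78 for Os09g0482400 and 0.10 for HSFA2c. The 6 h effect is also part of the difference used in choosing the list. Nothing is therefore read from these signs, and the calls and p-values at 6 h are a description. The groups overlapped for all 9 genes, while they did not for 19.6% of tested genes. Leaf markers were between 106 and 225 RPM in mock and between 65.0 and 109 in treated roots at 6 h; their part in these values was not tested.

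At 24 h the 6 tested genes had positive fold changes, treated over mock, in the comparison from which the list was chosen. The log2 fold change was 0.55 ± 0.12 (SE) for Os05g0460000, 0.37 ± 0.13 (SE) for Os03g0276500, 0.34 ± 0.11 (SE) for Os08g0500700 and 0.19 ± 0.29 (SE) for Os03g0277300. HSFA2a was 0.62 ± 0.31 (SE) higher, from 46.0 ± 5.05 (SD, n = 3) to 72.5 ± 14.1 (SD, n = 3) normalised counts. The median was 0.46, and that of all tested genes was -0.01. Of the 6, 0 were called by limma, where 0.115% of all tested genes were. The treated libraries lay above the mock libraries without overlap for 3 of the 6 tested genes, which were Os08g0500700, Os05g0460000 and HSFA2a, and for HSFA2c, which was not tested; over all tested genes the share was 6.17%. Because this comparison chose the list, neither count is read against its share. HSP101 had a log2 fold change of 0.67 ± 0.58 (SE), which was -0.08 without treated replicate 3 and 0.25 without mock replicate 3.

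The treatment effect at 24 h minus that at 6 h was positive for the 6 tested genes, again a description. It was 0.69 ± 0.17 (SE) for Os05g0460000, 0.46 ± 0.18 (SE) for Os03g0276500 and 0.35 ± 0.16 (SE) for Os08g0500700, on the log2 scale. It was 0.71 ± 0.44 (SE) for HSFA2a, 1.23 ± 0.82 (SE) for HSP101, which was 0.48 without treated replicate 3 at 24 h, and 0.66 ± 0.40 (SE) for Os03g0277300. Of the 6, 0 were called by limma, where 0.552% of all tested genes were, and nothing is read from this count, since the difference was also used in choosing the list.

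**Figure D3:**
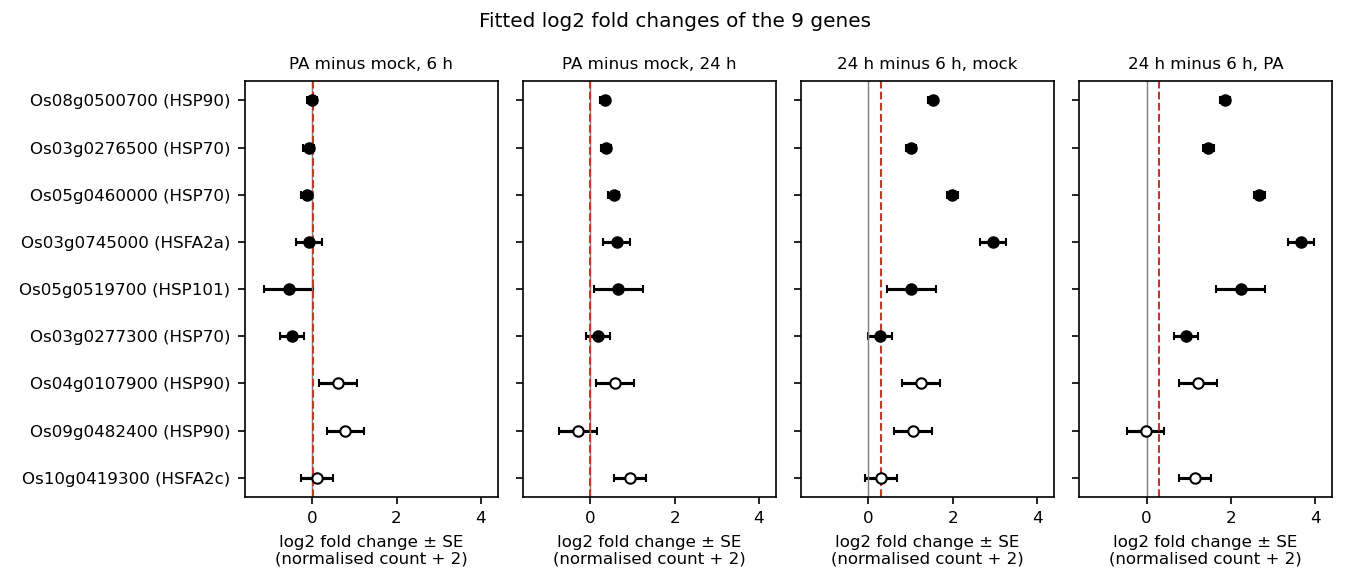
Log2 fold changes ± SE on normalised counts plus 2 (horizontal axes) for the 9 genes (vertical axis) in treated over mock roots at 6 h and 24 h and in 24 h over 6 h in mock and treated roots. Filled points were tested, open points come from a fit without the filter on low values, and dashed lines mark the median of all tested genes, 0.30 in mock and 0.29 in treated roots for the comparison of the times.

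In mock roots, 4 of the 9 genes rose from 6 h to 24 h in limma run without the filter on low values, where 19.9% of all genes were called higher. These were HSFA2a, Os05g0460000, Os08g0500700 and Os03g0276500, and the same 4 were called among the tested genes, where 35.8% were called higher. HSFA2a and HSP101 entered the filtered test only through the 24 h libraries, so their p is given from the fit without the filter. Both mock groups are part of the difference used in choosing the list, so the calls and p-values of the mock course are a description. Because the authors scaled each time on its own, all tested genes had a median log2 difference of 0.30, so each value is also given with 1 set of size factors for all libraries. HSFA2a had a log2 fold change of 2.95 ± 0.31 (SE) at an adjusted limma p of 3.96e-06 without the filter, and of 2.71 with 1 set of factors. In RPM it went from 0.571 ± 0.295 (SD, n = 3) to 4.64 ± 0.470 (SD, n = 3), which is 8.12-fold. Os05g0460000 for HSP70 rose by 1.99 ± 0.12 (SE) at an adjusted limma p of 2.22e-08, and by 1.69 at 1.44e-07 with 1 set of factors. It went from 30.8 ± 3.41 to 98.3 ± 9.42 (SD, n = 3) RPM, 3.19-fold.

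The abundant HSP90 gene Os08g0500700 rose in mock roots by 1.52 ± 0.11 (SE) at an adjusted limma p of 1.41e-07, and by 1.22 at 1.79e-06 with 1 set of factors; in RPM the ratio was 2.28. Os03g0276500 for HSP70 rose by 1.01 ± 0.13 (SE) at an adjusted limma p of 2.32e-05, and by 0.71 at 0.000804 with 1 set of factors; the ratio was 1.61. With 1 set of factors 8.10% of all tested genes were called higher and the same 4 genes were called. For these 4 the mock libraries of the times did not overlap in RPM, as was so in the upward direction for 14.8% of tested genes. HSP101, at 1.01 ± 0.56 (SE) and an adjusted limma p of 0.230 without the filter, did not pass, and neither did Os03g0277300, at 0.26 ± 0.29 (SE) and 0.483, whose value was -0.01 with 1 set of factors.

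In treated roots the values at 24 h were set beside those at 6 h as a description, since the 24 h libraries are those of the comparison that chose the members. The 6 tested genes were called higher, where 33.3% of all tested genes were, and nothing is read from this count, HSFA2a and HSP101 having passed the filter only through the 24 h libraries. The log2 fold change was 3.66 ± 0.31 (SE) for HSFA2a, 2.68 ± 0.12 (SE) for Os05g0460000, 1.87 ± 0.11 (SE) for Os08g0500700 and 1.47 ± 0.13 (SE) for Os03g0276500. In RPM HSFA2a was 14.6-fold higher, Os05g0460000 was 5.04-fold higher, Os08g0500700 was 2.85-fold higher and Os03g0276500 was 2.17-fold higher. HSP101 gave 2.24 ± 0.58 (SE), and 1.50 without treated replicate 3 at 24 h. Os03g0277300 gave 0.93 ± 0.29 (SE), and 0.66 with 1 set of factors. With 1 set of factors 5 of the 6 were called, all but Os03g0277300, and 6.82% of all tested genes were called higher.

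The order of the groups was the same for Os08g0500700, Os05g0460000 and HSFA2a in RPM: treated and mock roots at 6 h overlapped, mock roots at 24 h lay above both, and treated roots at 24 h lay highest without overlap. For Os03g0276500 the order was the same, but the 24 h groups overlapped. For HSP101 all neighbouring groups overlapped. In RPM the treated libraries lay above the mock libraries at 24 h without overlap for 5.39% of tested genes. The 24 h comparison chose the members, so their order at that time is a description. Among genes outside the list, the 2 whose log2 levels over the 12 libraries, centred within each time, correlated most with the mean of the tested members were Os08g0461300 (r = 0.910) and Os05g0244500 (r = 0.892). Os05g0244500 went from 64.5, 71.2 and 65.8 normalised counts in mock roots to 44.3, 58.7 and 49.5 in treated roots at 6 h. At 24 h it stood at 75.5, 83.2 and 70.8 in mock and at 77.8, 113 and 137 in treated roots. These libraries share the treatment and the scaling, so the correlations are a description. The mean weighs each tested member alike. Centred within each time, it was highest in treated replicate 3 at 24 h (0.475) and lowest in mock replicate 3 at 24 h (-0.456). HSP101 stood at 66.2 and 6.70 normalised counts in these libraries. Os08g0500700 stood there at 21194, lowest of the treated, and at 19660, highest of the mock libraries at 24 h. A high r with the mean need therefore not hold for each member.

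Other chaperone and heat stress factor genes were followed by recalled loci, whose names are likewise intended content. At 6 h, 0 of the 35 tested genes of these 5 lists were called by limma, 6 had an unadjusted limma p under 0.05, edgeR called 0, DESeq2 called 2 and limma with a replicate block by the title numbers called 3, all of them heat stress factors or small heat shock protein genes. In mock roots from 6 h to 24 h, 3 of 3 other HSP90, 6 of 8 other HSP70 and BiP and 2 of 2 other ClpB genes rose. So did 3 of 8 small heat shock protein genes, and of 14 other heat stress factors 6 rose and 2 fell. Over all tested genes 35.8% rose and 5.60% fell. The 2 that fell, Os02g0527300 and Os01g0733200, reached the mean needed for testing only through the 6 h libraries. Nothing is read from calls of these 2 genes on any scale. The median log2 fold changes were 0.64, 0.67, 1.17, 0.52 and 0.36 in that order of lists. With 1 set of factors, 8.10% of all tested genes rose and 9.13% fell, and fewer of the listed genes were called. Of these, 2 other HSP90 genes rose, 3 other HSP70 and BiP genes rose and 1 fell, and 1 other ClpB gene rose. On that scale 2 small heat shock protein genes rose and 1 fell, 3 other heat stress factors rose and 2 fell, and the medians in the same order were 0.34, 0.37, 0.88, 0.27 and 0.07. Os01g0840100, listed for HSP70, rose by 1.79 ± 0.12 (SE) at an adjusted limma p of 6.92e-08, from 367 ± 59.2 to 1260 ± 54.5 (SD, n = 3) normalised counts, and by 1.49 at 5.63e-07 with 1 set of factors.

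At 24 h limma called 2 other heat stress factors and 1 small heat shock protein gene higher in treated than in mock roots. Over all tested genes 0.115% were called in either direction and 0.0573% higher. The lists were written with earlier results of heat shock genes in this comparison known, so the calls and p-values here are a description. edgeR called 5 and DESeq2 called 6 of the 35, all higher and all in these same 2 lists, so that 0 of the other HSP90, HSP70, BiP and ClpB genes were called by any of the 3 tools. Os08g0546800, listed for a heat stress factor, was higher by 1.47 ± 0.23 (SE) on the log2 scale at an adjusted limma p of 0.0166. It stood at 68.2, 42.8 and 38.3 normalised counts in mock and at 168, 109 and 141 in treated roots, without overlap. Os09g0526600, also a listed factor, was higher by 0.59 ± 0.09 (SE) at an adjusted limma p of 0.0176. The small heat shock protein gene Os02g0758000 went from 711 ± 56.2 to 1179 ± 105 (SD, n = 3) normalised counts, a log2 fold change of 0.73 ± 0.13 (SE) at an adjusted limma p of 0.0467. On leaving out each of the 12 libraries in turn, the call was lost in 4 refits for Os08g0546800, in 5 for Os09g0526600 and in 9 for Os02g0758000; for the first 2 the library left out was always one of 24 h. With a replicate block by the numbers of the source names all 3 calls were lost, at adjusted limma p of 0.0942, 0.112 and 0.108 in the same order. Small heat shock proteins hold unfolding proteins in a form that HSP70 and HSP101 can refold.

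In limma the treatment effect was higher at 24 h than at 6 h for 4 other heat stress factors. The same was so for 1 small heat shock protein gene. Over all tested genes 0.552% were called in either direction and 0.208% higher. edgeR called 4 and DESeq2 6 of the 35, again all in these lists. With the source-name block 0 of the 35 were called. Earlier results of heat shock genes in this difference were also known when the lists were written, so these calls are a description. Of the genes called by limma, Os03g0161900 stood at 48.7, 52.7 and 56.4 normalised counts in mock and at 26.6, 38.8 and 35.5 in treated roots at 6 h. By 24 h it was at 111, 116 and 90.9 in mock and at 168, 204 and 262 in treated roots. Treated roots lay below mock roots at 6 h and above them at 24 h, without overlap at either time. Groups lay so for 9.73% of tested genes at 6 h and for 6.17% at 24 h, each time counted by itself. The share of tested genes with both was not computed. Taken singly, neither effect passed adjustment in limma, at 0.0920 at 6 h and 0.0599 at 24 h. The difference between the effects was 1.60 ± 0.26 (SE) on the log2 scale at an adjusted limma p of 0.0122.

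**Figure D4:**
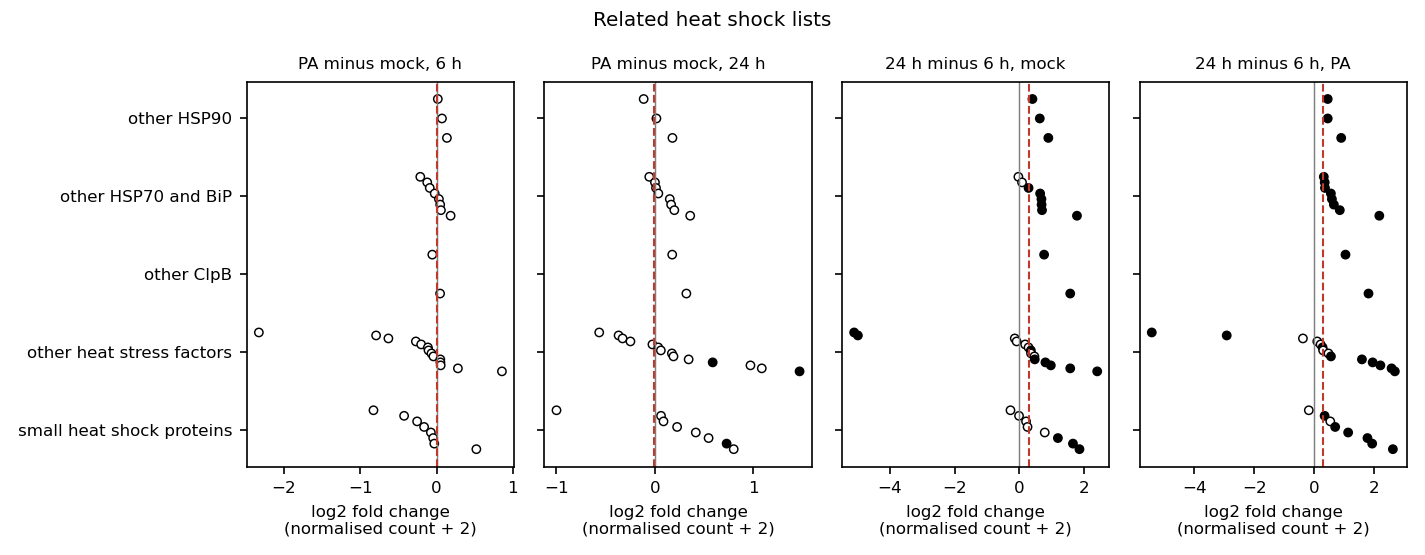
Log2 fold changes on normalised counts plus 2 (horizontal axes) of the 5 lists of other chaperone and heat stress factor genes (vertical axis), each panel on its own scale, 1 point a tested gene, filled where called by limma; dashed lines mark the median of all tested genes. No point is filled at 6 h, 3 are filled at 24 h, and 2 heat stress factors lie far to the left in the comparisons of the times.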

How the data were processed

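Roots were profiled by 3′ mRNA sequencing. The deposited table, 1 for the series, holds a normalised signal for each gene made by the authors. STAR 2.6.1d, Trimmomatic 0.38, FastQC 0.11.8 and DESeq2 appear in the submitters' processing notes. Which tool counted the reads, and on which genome build, is not given in the sources used here. Values are reads divided by a size factor: at least 99.982% of those above 0 were whole multiples of 1 read within 0.01, and the factors equalled median-of-ratios factors within each time to 3.2e-06%. Groups and replicate numbers came from the titles; the numbers in 3 source names differ.

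Genes with a mean of at least 10 over the 12 libraries were tested, 19207 in all; 4356 were 0 throughout. limma 3.58.1 in R 4.3.3 fitted log2(normalised count + 2) with 4 group means, trend and robust moderation, and Benjamini-Hochberg adjustment at 0.05; the added 2 understates changes of low genes. edgeR 4.0.16 and DESeq2 1.42.0 on recovered reads, and other pseudocounts, filters, scalings, weights, replicate blocks and leaving out each library, were alternatives. The procedure was tested on simulated data. Members and lists were chosen with earlier results of these data known, and the lists were written from recalled loci. All members are named; of the related genes, up to 3 called per comparison by smallest p, and the 2 genes most correlated with the members.

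Deviations of same-numbered mock and treated libraries correlated at 0.305, 0.288 and 0.126 at 6 h, against at most 0.0341 for different numbers, so the title numbers were taken to pair them there. At 24 h the values were -0.187, 0.0505 and 0.0212, against up to 0.208 for different numbers, and the libraries were taken as unpaired. Deviations sum to 0 within a group, so the values for same and different numbers are not independent, and the pairing was not tested. The main fit had no replicate block, so its SE and p at 6 h do not use this pairing. The fit with a block by the title numbers was the alternative for it.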

Additional observations from a re-analysis of the deposited data

Results flagged for a closer look

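For 5 genes of the related lists the treatment effects at the times differed by a test of the difference, in limma with Benjamini-Hochberg adjustment over all tested genes. They had been called in that comparison, which is the reason for naming them. The lists were written with earlier results of heat shock genes in that comparison known, so the p-values are a description. Os03g0161900 had log2 effects of -0.63 at 6 h and 0.97 at 24 h, a difference of 1.60 at an adjusted p of 0.0122. Os04g0568700, also listed for a heat stress factor, had -0.79 and 1.08, a difference of 1.88 at 0.0131; its level was 29.4 ± 2.38 in mock and 16.6 ± 4.94 in treated roots at 6 h, and 53.3 ± 7.24 and 116 ± 17.7 (SD, n = 3) normalised counts at 24 h. Os01g0184100, listed for a small heat shock protein, had -0.42 and 0.54, a difference of 0.97 at 0.0156. Os08g0546800 had -0.11 and 1.47, a difference of 1.58 at 0.0387, and Os09g0526600 had -0.04 and 0.59, a difference of 0.63 at 0.0435. Taken singly, the effects of Os03g0161900, Os04g0568700 and Os01g0184100 passed adjustment in limma at neither time.

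On leaving out each of the 12 libraries in turn, the call for Os03g0161900 was lost in 0 refits, that for Os04g0568700 without treated replicate 2 at 24 h, at 0.0579, that for Os01g0184100 without treated replicate 2 at 6 h, at 0.0555, that for Os08g0546800 in 10 and that for Os09g0526600 in 9. With a replicate block by the numbers of the source names, which differ from the titles, all 5 calls were lost, at adjusted limma p from 0.0892 to 0.107. With the title numbers all 5 were kept, at 0.00584 to 0.0297.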

How the results depend on the processing

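The count of called members moved as follows. DESeq2 called 1 of them at 24 h and 1 in the difference of the effects, and the replicate block by the title numbers also called 1 in the difference, against 0 by limma. On leaving out each library the difference gave between 0 and 1 calls and the treated course between 5 and 6. A minimum mean of 50 left 3 tested members, all called in the treated course. The members' median log2 fold change in the difference was 0.46 at that minimum. In the mock course it was 1.05 without a filter, 1.52 at a minimum of 50 and 0.996 with 1 set of size factors, against 1.27. In the treated course it was 2.28 with a pseudocount of 0.5, 1.67 with 8, 1.47 without a filter and 1.80 with 1 set of factors, against 2.05, and 1.75 to 2.29 on leaving out each library. No called value reversed in any alternative run. Over single members, 658 values stayed on their side of the threshold, 4 passed it and 7 fell short of it. The replicate block changed no other member's call in the treatment comparisons. Over all tested genes, the alternatives called 4 to 802 genes at 6 h against 319, 0 to 53 at 24 h against 22, and 25 to 471 in the difference against 106. The replicate block gave 802 and 26 by title numbers at 6 h and 24 h, and 65 and 0 by source-name numbers. The mock course had 3253 to 8578 calls against 7943, and the treated course 2605 to 7878 against 7187. With 1 set of factors 1556 genes were higher and 1754 lower in the mock course, against 6867 and 1076 with the authors' factors; in the treated course it was 1309 and 1368 against 6390 and 797. The cause of these shifts was not tested, beyond the separate scaling of the times. The difference of effects has no value in a fit of only the groups compared. In the treated course the call of Os03g0277300 was lost with edgeR, DESeq2, 1 set of factors and on leaving out any 1 of replicates 2 and 3 of either treated group. Os05g0460000 was the member called by DESeq2 and by the block, and without treated replicate 3 at 6 h. Depth limits the 3 untested members and HSP101 and HSFA2a at 6 h.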

Other observations

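A pair of listed heat stress factors were lower at 24 h than at 6 h in both treatments; they were singled out after their values were seen. Os01g0733200 stood at 170.5, 170.0 and 133 normalised counts in mock and at 168, 137 and 145 in treated roots at 6 h, and at no more than 5.17 in any library at 24 h. Os02g0527300 stood at 73.1, 109 and 177 in mock roots at 6 h and at no more than 2.52 in any library at 24 h. Their log2 fold changes in mock roots were -5.11 ± 0.37 (SE) and -4.99 ± 0.58 (SE); no p is given, since both reached the mean needed for testing only through the 6 h libraries. At 6 h Os02g0527300 stood at 6.88, 18.9 and 61.6 in treated roots, below every mock library. The log2 fold change was -2.33 ± 0.58 (SE), and -1.75 with a replicate block by the source-name numbers. It was called in limma with a block by the title numbers and in DESeq2. In limma without a block, in limma with the source-name block and in edgeR it was not called. Nothing is read from these calls and no p is given, since the gene was singled out after its values were seen. Its place among the tested genes also came from the mock libraries at 6 h, where it was highest.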
